A study of Mus musculus with 2 samples.

Results

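Each B cell joins 1 variable (V), 1 diversity (D) and 1 joining (J) segment into an immunoglobulin heavy chain gene, and the mRNA then runs from the V segment to a constant region such as Ighm (IgM), Ighg2c (IgG2c) or Igha (IgA). The V segments used by a population of B cells and antibody-secreting plasma cells are described here from droplet single-cell RNA sequencing of mouse liver. In both groups fibrosis had been induced with carbon tetrachloride (CCl4), a hepatotoxin that scars the liver. One group also received indole propionic acid (IPA), a tryptophan metabolite of gut bacteria, and the other received CCl4 without it. The groups are CCl4+IPA and CCl4, with 1 library each. The strain, age, doses, times and number of animals behind a library are not given in the sources used here. No replicate error exists, so no test was run, and the 95% intervals cover counting error only.

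The V genes were taken as the rows whose symbol begins with Ighv and that hold at least 20 UMIs (unique molecular identifiers, 1 per captured transcript) summed over both deposited matrices. This rule left 53 of the 183 Ighv rows. The 53 genes held 4677 of the 5060 Ighv UMIs, between 23 and 394 each with a median of 62. Another 65 rows held 1 to 19 UMIs, 383 in all, and 65 rows held none. The 4 lowest of the 53 had 23 to 25 UMIs, while Ighv2-5, Ighv1-5 and Ighv1-31 lay just outside with 19 each. GENCODE M21 annotates all 53 as V genes rather than pseudogenes. It annotates 18 of the 65 rows with 1 to 19 UMIs and 52 of the 65 rows without a UMI as V pseudogenes, which are V segments that cannot give a working chain. No coordinates are given because the submitters' notes name a build that differs from the annotation used here, and only the order of the genes along the locus on chromosome 12 is used.

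The Ighv1 family, the largest of the mouse heavy chain V families, supplied 28 of the 53 genes and 60.8% of their UMIs. Ighv5 supplied 7 genes and 10.5% of the UMIs, Ighv9 supplied 3 genes and 9.28%, and Ighv8 supplied 3 genes and 7.25%. No gene of the Ighv11, Ighv12, Ighv13 or Ighv16 families reached 20 UMIs. Germline V segments of one family are close copies of each other. Over the last 290 bases of the annotated transcripts, the identity of a member to its nearest Ighv row had a median of 95.5% and ranged from 75.2% to 99.3%. A read from one V gene could therefore be counted for a near copy, and a UMI of a V gene is a call of the authors' read assignment.

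Germline sequences of 2 genes are shown because each was the most used V gene of 1 library's Jchain-high cells, antibody-secreting cells defined below. Ighv8-5 was assigned to 6 such cells with IPA and 0 without, and Ighv1-26 to 3 with IPA and 10 without. They are the last 290 bases of the GENCODE M21 (GRCm38) transcripts, written 5′ to 3′. Capitals mark the motif TANTANTGT (N is any base), which lies just before the antigen-contacting CDR3. Searched on the transcript strand alone, it was found in the last 60 bases of 38 of the 53 members and of 81 of the other 130 Ighv rows (62.3%).
Ighv8-5: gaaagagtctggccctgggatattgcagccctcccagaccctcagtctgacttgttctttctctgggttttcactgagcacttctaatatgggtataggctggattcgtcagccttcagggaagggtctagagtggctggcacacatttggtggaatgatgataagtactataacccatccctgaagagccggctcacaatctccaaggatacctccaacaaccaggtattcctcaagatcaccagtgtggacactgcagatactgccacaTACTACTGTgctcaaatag
Ighv1-26: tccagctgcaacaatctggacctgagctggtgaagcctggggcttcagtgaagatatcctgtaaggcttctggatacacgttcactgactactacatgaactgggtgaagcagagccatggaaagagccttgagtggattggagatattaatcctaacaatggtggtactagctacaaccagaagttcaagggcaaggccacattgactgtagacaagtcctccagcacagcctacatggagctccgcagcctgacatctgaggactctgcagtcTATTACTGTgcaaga

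A second pair is shown because its members were detected in the same cells. Ighv1-72 and Ighv1-62-3 differ at 2 of these 290 positions, marked by capitals. Counted from 1 at the first base shown, with the Ighv1-72 base first, the differences are T60A and T281C.
Ighv1-72: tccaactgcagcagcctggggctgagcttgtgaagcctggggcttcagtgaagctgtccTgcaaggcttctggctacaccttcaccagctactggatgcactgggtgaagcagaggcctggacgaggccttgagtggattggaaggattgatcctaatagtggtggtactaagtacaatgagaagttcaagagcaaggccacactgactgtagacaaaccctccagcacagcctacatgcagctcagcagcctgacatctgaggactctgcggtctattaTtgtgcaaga
Ighv1-62-3: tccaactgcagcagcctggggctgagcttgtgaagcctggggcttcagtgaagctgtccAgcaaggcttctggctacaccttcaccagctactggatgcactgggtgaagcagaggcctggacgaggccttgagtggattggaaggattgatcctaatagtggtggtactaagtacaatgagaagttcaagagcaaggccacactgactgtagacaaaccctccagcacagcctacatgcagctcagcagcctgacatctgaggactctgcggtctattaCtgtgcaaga

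B cells were taken as cells with at least 3 UMIs summed over Cd79a and Cd79b, the signalling chains of the B cell receptor, and Ms4a1 (CD20), that were not plasma cells. Plasma cells were taken as cells with at least 5 UMIs of Jchain, which links IgA and IgM into polymers, and at least 1 UMI of Mzb1, an endoplasmic reticulum protein of secretory B cells. Of 10128 and 10016 analysed cells in the CCl4+IPA and CCl4 libraries, 3305 and 3953 were B cells and 10 and 29 were plasma cells by these rules. Mzb1 was scarce, with at most 2 and at most 4 UMIs in a cell, so that most cells rich in Jchain were placed among the B cells. Another class was therefore added after the values had been seen: Jchain-high cells, with at least 50 Jchain UMIs, of which there were 58 and 75. Their Jchain UMIs had medians of 470.5 and 481. Just under that boundary, 2 and 2 cells had 25 to 49 Jchain UMIs, and just above it 5 and 2 cells had 50 to 99. A Mzb1 UMI was present in 9 of the 58 and in 28 of the 75, and 46 and 43 of the Jchain-high cells counted as B cells by the rule. B cells with fewer than 50 Jchain UMIs, 3259 and 3910 cells, are called Jchain-low B cells.

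Marker genes that the rules did not use separated these classes. Summed levels of 8 plasma cell genes (Xbp1, Sdc1, Prdm1, Irf4, Derl3, Tnfrsf17, Eaf2 and Fkbp11) were 3773 and 3200 CPM (UMIs per 1000000 of the class) in Jchain-high cells of the CCl4+IPA and CCl4 libraries, against 311 and 245 CPM in Jchain-low B cells. The B cell regulator Pax5 stood at 3.21 and 6.36 CPM in Jchain-high cells and at 621 and 461 CPM in Jchain-low B cells. Ebf1, another B cell regulator, stood at 48.1 and 74.2 CPM in Jchain-high cells and at 2415 and 1821 CPM in Jchain-low B cells. The 4 NK cell genes Ncr1, Klrb1c, Nkg7 and Klre1 summed to 248 CPM in the 10 plasma cells with IPA and 1.68 CPM in the 29 without, and to 83.4 and 10.6 CPM in Jchain-high cells. The 5 phagocyte genes Lyz2, Csf1r, C1qa, Adgre1 and Ccr2 summed to 64.8 and 13.5 CPM in plasma cells and to 41.7 and 14.1 CPM in Jchain-high cells. The part of cells of another type in either class was not tested. The deposited matrices held 37983923 and 45009730 UMIs over 10471 and 10427 barcodes, and 23 barcodes occurred in both libraries, none of them with an Ighv UMI in both.

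V gene transcripts were found in B lineage cells and were near background elsewhere. In plasma cells 10 of 10 cells of the CCl4+IPA library and 28 of 29 of the CCl4 library had an Ighv UMI, and in Jchain-high cells 54 of 58 and 71 of 75 did. B cells had one in 11.9% (10.8 to 13.0) of cells with IPA and 20.3% (19.1 to 21.6) of cells without. T cells, which do not rearrange heavy chain genes fully, had one in 0.351% and 0.399% of cells, taken here as the background. Their median depths were 3370 and 4065 UMIs, against 2391 and 2819 in B cells. With every cell thinned to 1000 UMIs and 65 and 38 shallower B cells left out, the shares were 5.46% and 7.69% in B cells and 0.0322% and 0.12% in T cells. B cells thus stood far above the background in both libraries, and the share was lower in the CCl4+IPA library before and after thinning.

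**Figure D1:**
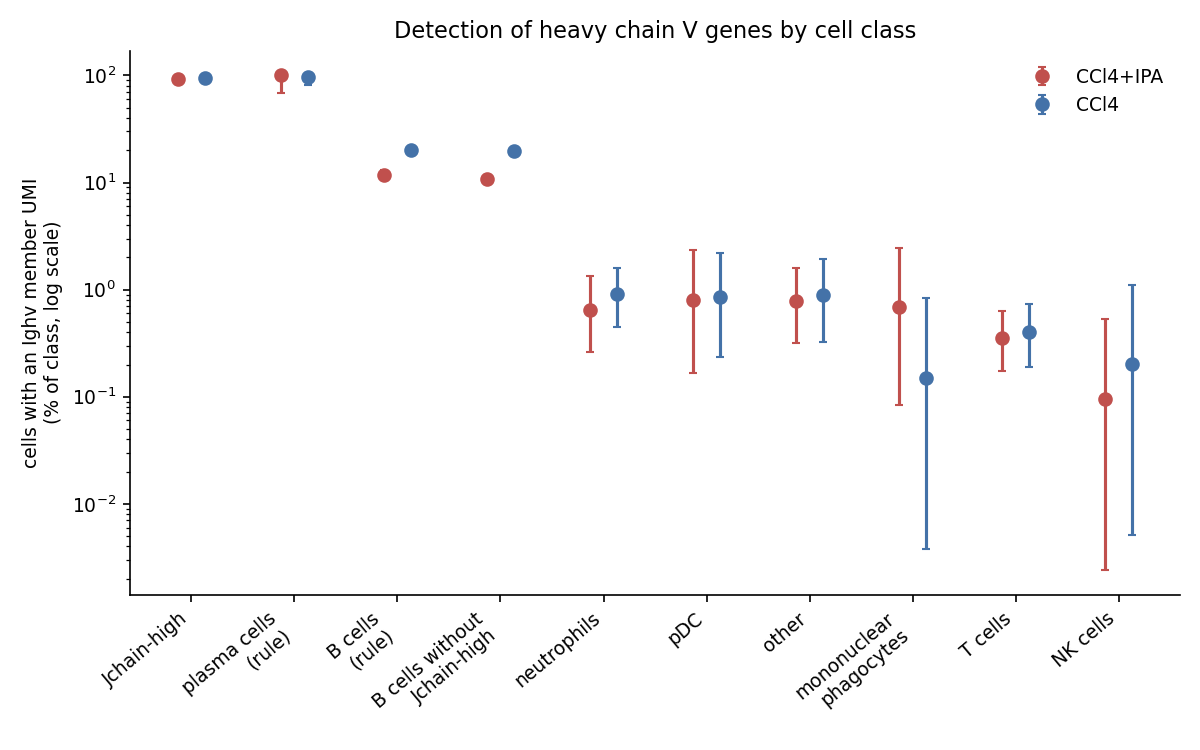
Share of cells with at least 1 Ighv UMI in each cell class (log scale, percent of the class) in the CCl4+IPA and CCl4 libraries, with exact 95% binomial intervals. Jchain-high cells lie at 93.1% and 94.7%, B cells at 11.9% and 20.3%, and the classes outside the B lineage at 0.902% or less.

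A few antibody-secreting cells carried most of the V gene transcripts. Jchain-high cells were 0.573% of the analysed cells of the CCl4+IPA library and 0.749% of those of the CCl4 library, and held 70.0% and 67.8% of the Ighv UMIs. Within the B cells of the rule, the 46 and 43 Jchain-high cells held 69.5% and 54.2% of the Ighv UMIs. A single Jchain-high cell had between 0 and 78 Ighv UMIs in the CCl4+IPA library, with a median of 11.5, and between 0 and 115 in the CCl4 library, with a median of 19. At least 10 Ighv UMIs were present in 31 of 58 and in 55 of 75 of these cells. The cells of the libraries overlapped over most of their range.

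The summed Ighv level was lower in the CCl4+IPA library in each B lineage class. In B cells it was 137 CPM (130 to 144) with IPA and 156 CPM (149 to 162) without, a ratio of 0.880 (0.821 to 0.943). In Jchain-low B cells it was 45.4 and 75.7 CPM, a ratio of 0.599 (0.532 to 0.674). In the Jchain-high cells counted as B cells the ratio was 0.843 (0.772 to 0.920). These cells were 1.39% and 1.09% of the B cells. With them included, the B cell ratio was nearer 1 than the ratio of either part. In plasma cells it was 631 CPM (517 to 762) over 10 cells and 1598 CPM (1498 to 1703) over 29 cells, a ratio of 0.395 (0.320 to 0.483), which was 0.682 (0.331 to 1.30) with cells thinned to 1000 UMIs. In Jchain-high cells it was 1091 and 1496 CPM, a ratio of 0.729 (0.676 to 0.786). T cells gave 0.865 and 0.859 CPM.

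The constant regions of the same heavy chains did not follow the V regions. Heavy chain constant genes summed to 152445 CPM in Jchain-high cells of the CCl4+IPA library and 93174 CPM in those of the CCl4 library. Igha stood at 127514 and 70487 CPM, a ratio of 1.81 (1.79 to 1.82). Per 1000 constant region UMIs, V region UMIs were 7.16 (6.73 to 7.61) with IPA and 16.1 (15.4 to 16.8) without, a ratio of 0.446 (0.413 to 0.481). Jchain-low B cells, whose constant UMIs are mainly Ighm and Ighd, had 8.43 and 16.6 per 1000, a ratio of 0.508. Within IgA Jchain-high cells alone the values were 7.41 and 15.4, and within IgG2c cells 6.63 and 15.6. The CCl4+IPA value was the lower one in both classes and both isotypes.

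V-to-constant ratios were below 1 also in receptor chains that Ighv genes have no part in. Kappa light chains had 7.69 Igkv UMIs per 1000 Igkc UMIs in Jchain-high cells of the CCl4+IPA library and 17.4 in those of the CCl4 library, a ratio of 0.443 (0.419 to 0.468). In Jchain-low B cells the kappa values were 9.32 and 17.8, a ratio of 0.523. In T cells, alpha chain V genes had 63.1 and 93.9 UMIs per 1000 Trac UMIs, a ratio of 0.672 (0.595 to 0.759). Beta chain V genes had 15.7 and 28.0 per 1000 UMIs of Trbc1 and Trbc2, a ratio of 0.560 (0.493 to 0.636). V regions lie at the 5′ end of these transcripts and constant regions at the 3′ end, where libraries of this kind read, and the part of these differences in the Ighv levels was not tested.

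**Figure D2:**
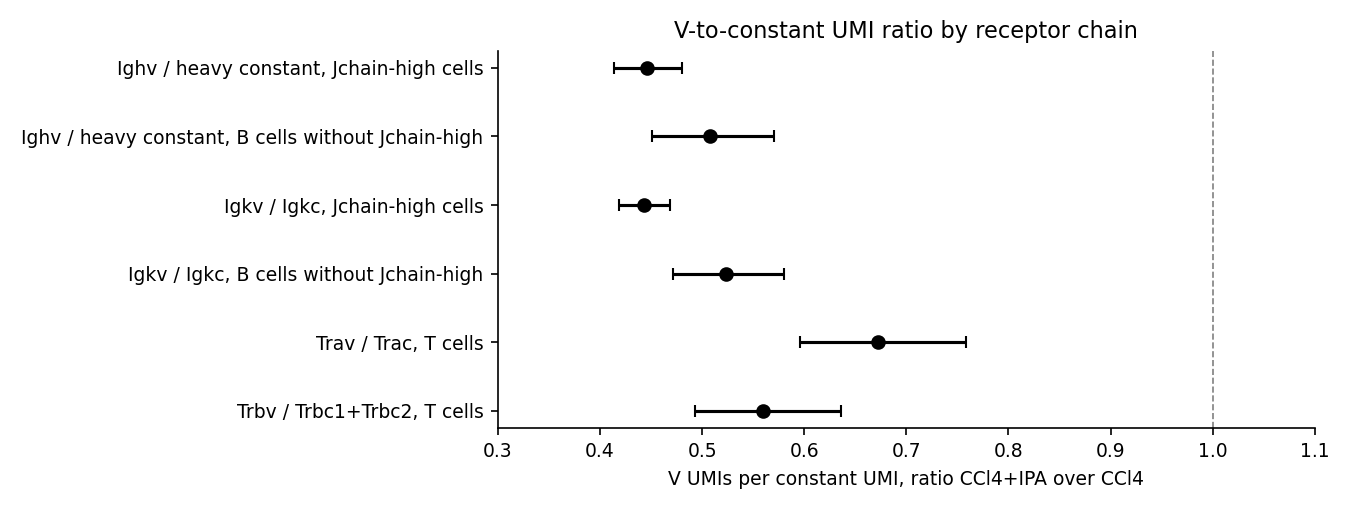
Ratio of V region UMIs per constant region UMI, CCl4+IPA over CCl4, for heavy, kappa and T cell receptor chains, with exact conditional 95% intervals. All 6 ratios lie below 1, from 0.443 for kappa to 0.672 for the T cell receptor alpha chain.

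A cell was assigned the V gene that held at least 2 UMIs and more than 50% of the cell's Ighv UMIs. In the CCl4+IPA library 81 of 3305 B cells were assigned (2.45%, 1.95 to 3.04), and in the CCl4 library 180 of 3953 (4.55%, 3.92 to 5.25). The ratio of these shares was 0.538 (0.409 to 0.703), and 0.934 (0.466 to 1.84) with cells thinned to 1000 UMIs. Of the Jchain-high cells 50 of 58 and 69 of 75 were assigned, and of the plasma cells 10 of 10 and 28 of 29. Allelic exclusion lets a B cell express 1 heavy chain, and most cells showed 1 V gene. Among Jchain-high cells with at least 10 Ighv UMIs, 28 of 31 (90.3%) in the CCl4+IPA library and 39 of 55 (70.9%) in the CCl4 library had UMIs of 1 member only. The leading gene held 98.9% and 95.2% of the Ighv UMIs of these cells.

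A second gene with at least 20% of the UMIs was seen in 1 and 5 of those cells. In the CCl4 library 3 of the 5 cells held the near-identical pair printed above, with 9 and 9, 12 and 4, and 19 and 17 UMIs of Ighv1-72 and Ighv1-62-3, all of them IgA cells. Ighv1-62-3 was not assigned to any cell, so its 38 UMIs and those of Ighv1-72 are uncertain between the 2 genes. The other cells held genes that are far apart in sequence. One CCl4 cell of 28570 UMIs had 52 UMIs of Ighv8-12 and 31 of Ighv1-77, which are 60.3% identical. Another had 25 UMIs of Ighv1-19 and 7 of Ighv6-6 (63.4% identical), and the CCl4+IPA cell had 6 of Ighv5-12 and 5 of Ighv1-75 (65.9% identical). Doublet calling had not marked these barcodes.

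In Jchain-low B cells V gene use was spread over nearly all members. Ighv1-26 was detected in 16 cells (0.491%) of the CCl4+IPA library and 41 cells (1.05%) of the CCl4 library, and Ighv1-9 in 16 (0.491%) and 39 (0.997%). Ighv6-3 was detected in 15 (0.460%) and 28 (0.716%), and Ighv1-18 in 14 and 22. Ighv1-64 was detected in 10 and 35 cells, Ighv9-3 in 10 and 29, Ighv3-6 in 11 and 29, Ighv1-82 in 14 and 19, and Ighv8-8 in 13 and 14. Across the 53 genes the numbers of cells in the 2 libraries had a Spearman correlation of 0.747 and a Pearson correlation of 0.745. This describes genes of 1 pair of libraries, the genes of a library share its cells and depth, and genes are not replicates. The share of cells was lower with IPA for 45 genes and higher for 7, with a median ratio of 0.486. The interval lay below 1 for 11 genes and above 1 for none. Among genes found in at least 20 of these cells over both libraries, the share was lower for 23 of 26 members, against 50.5% of all 12979 genes. The interval lay below 1 for 8 of these 26 members, against 12.8% of those genes. The median ratio was 0.510 for these members and 0.999 for all genes.

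**Figure D3:**
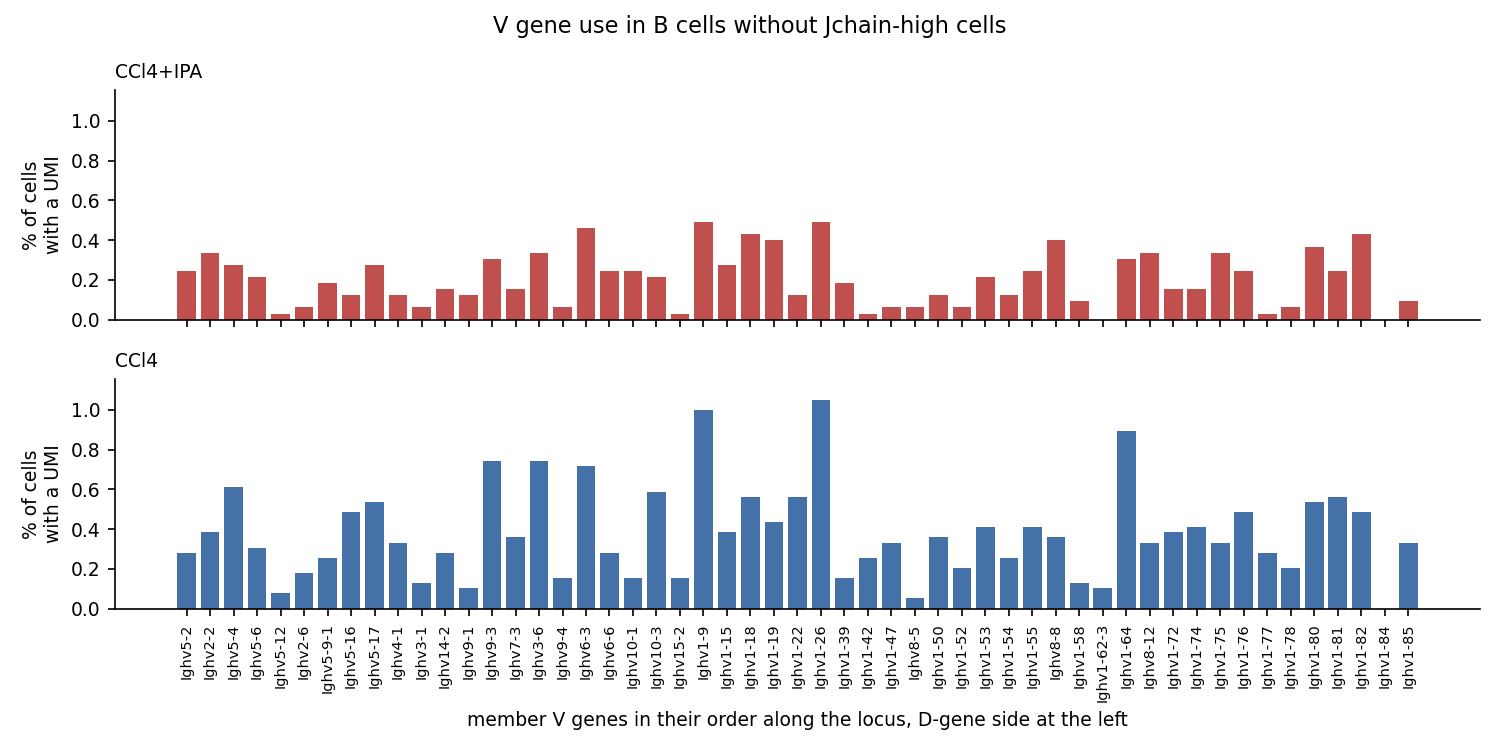
Percent of Jchain-low B cells with a UMI of each of the 53 members, in their order along the heavy chain locus with the D gene side at the left, for the CCl4+IPA library (above) and the CCl4 library (below). Both libraries use genes all along the locus, with Ighv1-9 and Ighv1-26 among the tallest bars in each, and most bars are lower with IPA.

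Family use in Jchain-low B cells was close between the libraries. With 1 UMI sufficient for assignment, Ighv1 was used by 186 of 346 cells (53.8%) in the CCl4+IPA library and 427 of 748 (57.1%) in the CCl4 library, a ratio of shares of 0.942 (0.788 to 1.12). Ighv5 was used by 12.4% and 12.6%, and Ighv6 by 6.65% and 5.08%. Ighv8 was used by 6.94% and 3.88%, a ratio of 1.79 (0.997 to 3.18), and its interval included 1, as did those of the other families. With at least 2 UMIs for assignment, Ighv5 was used by 11 of 41 cells (26.8%) and 15 of 141 (10.6%), a ratio of 2.52 (1.05 to 5.88). Among Ighv genes on the D gene side of the locus midpoint, which hold 23 of the 53 members, the cells assigned with 1 UMI used one in 43.9% and 44.0% of cases. D-side genes are used most by early B cell precursors, and of the 6 precursor genes Rag1, Rag2, Vpreb1, Vpreb3, Igll1 and Dntt, summing to 239 and 228 CPM here, Vpreb3 held 234 and 225 CPM. Rag2 was at 0 in both libraries.

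In all B cells of the rule, with at least 2 UMIs for assignment, the Ighv1 family was used by 38 of 81 cells (46.9%, 35.7 to 58.3) in the CCl4+IPA library and 108 of 180 (60%, 52.4 to 67.2) in the CCl4 library. The ratio of shares was 0.782 with an interval of 0.525 to 1.14, which includes 1. Ighv5 was used by 16 of 81 (19.8%) and 17 of 180 (9.44%), a ratio of 2.09 (0.989 to 4.40). Ighv8 was used by 10 of 81 (12.3%) and 6 of 180 (3.33%), a ratio of 3.70 (1.22 to 12.4). Among Jchain-low B cells alone, at the same minimum, Ighv8 was used by 3 of 41 (7.32%) and 5 of 141 (3.55%). That ratio was 2.06 (0.320 to 10.6), and its interval included 1. Ighv9 was used by 4.94% and 7.78%. The most used genes were Ighv8-5 with IPA (6 of 81 cells) and Ighv1-26 without (11 of 180). Ighv6-3 was used by 6.17% and 4.44% (5 and 8 cells), and no Jchain-high cell in either library held a UMI of it.

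V genes known from B-1 cells were scarce. Ighv11-2 and Ighv12-3, used by B-1 cells that bind phosphatidylcholine, had 4 and 3 UMIs over both libraries and were below the minimum, as was Ighv7-1, known from phosphorylcholine antibodies, with 6. In the analysed cells Ighv11-2 was found with 1 UMI in 1 cell of the CCl4+IPA library and in 3 cells of the CCl4 library, and Ighv12-3 in 1 and 2 cells. With all Ighv rows considered, 0 of 282 assigned B cells of both libraries held Ighv11-2 or Ighv12-3. No cell had more than 1 UMI of either gene, so the minimum of 2 UMIs could not assign them. This 0 therefore sets no limit on their share. Ighv5-2, a D-side gene of early repertoires, had 10 UMIs in B cells of the CCl4+IPA library and 14 in those of the CCl4 library, a ratio of 1.01 (0.402 to 2.45). Jchain-low B cells with an Ighv1 gene had 3248 CPM of Ighm with IPA and 2906 CPM without, below the 4077 and 3338 CPM of cells with a gene of another family. Fcer2a (CD23, of follicular B cells) stood at 524 and 563 CPM in Ighv1 cells and at 591 and 597 CPM in cells of other families. Cd9 stood at 8.45 CPM (2.74 to 19.7) and 22.8 CPM (16.1 to 31.3) in Ighv1 cells and at 35.5 CPM (20.7 to 56.8) and 31.4 CPM (22.1 to 43.3) in cells of other families. Bhlhe41 and Cd5 did not follow Cd9 throughout. Bhlhe41 was higher in Ighv1 cells with IPA and lower without, and Cd5 was higher in Ighv1 cells without IPA. With IPA, Zbtb32 had 3 UMIs in Ighv1 cells and 1 in cells of other families, and Cd5 had 1 and 3. These counts are too few for a direction. Without IPA, Zbtb32 was lower in Ighv1 cells. For Bhlhe41, Zbtb32 and Cd5 the intervals of Ighv1 cells and other families overlapped in both libraries. Cr2 (CD21) stood at 231 and 148 CPM in Ighv1 cells and at 225 and 153 CPM in cells of other families.

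Single cells held much of the UMIs behind the ratios of individual V genes in the B cells of the rule. Of 49 members with at least 20 UMIs there, 11 were at least 2-fold higher in the CCl4+IPA library and 18 at least 2-fold lower, against 3.84% of all 13557 genes higher and 2.68% lower. In 9 of the 11 and 8 of the 18, 1 cell held more than 50% of the UMIs in the higher library. Median log2 ratios were −0.55 over these members and 0.22 over all genes. Without Jchain-high cells 0 of 33 members were 2-fold higher and 12 were 2-fold lower, against 3.82% and 2.53% of 13387 genes, and for these 12 no single cell held more than 31.6% of a gene's UMIs in the higher library. Among plasma cells 1 of 13 was higher, Ighv9-4, and 10 were lower, against 12.8% and 6.34% of 3454 genes. Scaled to the Ighv UMIs of the plasma class in place of all UMIs, 1 was higher and 4 were lower. For Ighv1-42, Ighv1-50, Ighv1-58, Ighv1-64, Ighv1-77, Ighv1-85, Ighv5-12 and Ighv8-12, all UMIs in CCl4 plasma cells came from 1 cell. The other lower members were Ighv1-26, with 168 UMIs over 5 cells there, and Ighv9-3, with 170 over 4. Ighv9-4 had 34 UMIs in 1 cell with IPA and 16 in 1 cell without. In Jchain-high cells 10 of 36 were higher and 18 lower, against 4.92% and 5.2% of 6763 genes, and in 9 of the 10 and 13 of the 18 a single cell held more than 50%.

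Ighv8-5 had the highest ratio in B cells. It had 150 UMIs (15.6 CPM) in the CCl4+IPA library and 3 UMIs (0.221 CPM) in the CCl4 library, a ratio of 70.7 (23.7 to 347). It was carried by 6 Jchain-high cells of the CCl4+IPA library, with 34, 30, 29, 28, 17 and 10 UMIs, and all 6 were IgA cells. They were 12% (4.53 to 24.3) of the 50 assigned Jchain-high cells, against 0 of 69 in the CCl4 library (0 to 5.21), and the intervals overlapped. The limit of 3 counts for a count of 0 corresponds to 4.35%. In Jchain-high cells its level was 74.6-fold higher with IPA, with the 0 of the CCl4 library set at 3 UMIs, and the interval began at 59.95. Igkv3-2 was the leading light chain V gene in 3 of the 6 cells and Igkv1-110 in 1. In Jchain-low B cells Ighv8-5 was found in 2 and 2 cells, and of all assigned B cells it was used by 7.41% and 0.556%. No plasma cell by the rule held a UMI of Ighv8-5 in either library. With IPA Ighv1-26 led there, with 2 of 10 assigned cells.

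Ighv5-4 had 91 UMIs in B cells with IPA and 30 without, a ratio of 4.29 (2.81 to 6.72), but 78 of the 91 came from 1 IgA cell and in Jchain-low B cells the ratio was 0.578 (0.270 to 1.16). Ighv8-8 had 50 and 16 UMIs, a ratio of 4.42, with 33 of the 50 in 1 Jchain-high IgA cell, and in Jchain-low B cells the ratio was 1.54 (0.729 to 3.25). A further Jchain-high IgA cell with 12 UMIs of it was a plasma cell by the rule. Ighv1-76 had 56 and 23 UMIs, a ratio of 3.44, with 42 UMIs in 1 cell, and in Jchain-low B cells the ratio was 0.503 (0.194 to 1.16). Ighv1-9 had 142 and 95 UMIs, a ratio of 2.11 (1.62 to 2.77). It was assigned to 4 Jchain-high cells with IPA, with 77, 32, 19 and 16 UMIs, and to 2 without, with 38 and 9 UMIs, while the ratio in Jchain-low B cells was 0.512 (0.276 to 0.906). Ighv1-75 had 28 and 16 UMIs and was assigned to 4 and 3 B cells.

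Ighv1-26 was the most used member among antibody-secreting cells of the CCl4 library. It was assigned to 3 Jchain-high cells with IPA, of 9, 4 and 3 UMIs, and to 10 without, of 62, 58, 54, 32, 30, 23, 17, 15, 7 and 5 UMIs. These were 6% (1.26 to 16.5) and 14.5% (7.17 to 25.04) of the assigned Jchain-high cells, and the intervals overlapped. Its level there was 17.1 CPM with IPA and 215 CPM without, a ratio of 0.0796 (0.0449 to 0.131), and in B cells of the rule 20 and 183 UMIs gave a ratio of 0.155. Of the 10 CCl4 cells, 7 were IgA, 2 were IgG2c and 1 was IgG2b. Igkv12-98 was the leading light chain V gene in 2 of the IgA cells. Ighv1-26 also led in plasma cells by the rule, with 2 of 10 and 5 of 28 assigned cells. These are cells of the 3 and 10 above counted again, so they add no separate support.

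Several other members were found in more Jchain-high cells of the CCl4 library. Ighv9-3 was assigned to 1 cell with IPA, of 32 UMIs, and to 6 without, with 107, 43, 41, 19, 16 and 16 UMIs. Ighv1-52 was assigned to 1 cell of 14 UMIs and to 6 of 3 to 9 UMIs, of which 3 shared IgA and Igkv6-15. Ighv1-82 was assigned to 2 cells of 59 and 14 UMIs and to 5 cells of 5 to 51 UMIs. All 5 were IgA, 3 with Igkv10-96 and 2 with Igkv5-43. Ighv14-2 was assigned to 0 cells with IPA and to 3 without, with 48, 46 and 12 UMIs and 3 different light chain V genes. Ighv1-64 was assigned to 2 cells of 24 and 4 UMIs and to 4 cells of 104, 45, 34 and 14 UMIs. The shares of assigned Jchain-high cells had overlapping intervals for each of these 5 genes, for example 4% (0.488 to 13.7) and 7.25% (2.39 to 16.1) for Ighv1-82.

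Low ratios rested on single cells for some genes but not for others. Ighv5-9-1 had 6 UMIs in B cells of the CCl4+IPA library and 128 in those of the CCl4 library, of which 115 were in 1 IgG2b cell. Ighv1-78 had 8 and 94 UMIs, with 83 of the 94 in 1 IgA cell. Ighv1-72 had 10 and 55 UMIs, a ratio of 0.257 (0.117 to 0.509), with 19 of the 55 in 1 cell, and is one of the near-identical pair. Ighv1-22 had 48 and 86 UMIs, a ratio of 0.790 (0.543 to 1.14). Single cells gave 42 of the 48 and 40 of the 86, and without Jchain-high cells its 5 and 33 UMIs gave a ratio of 0.219 (0.0667 to 0.564). Ighv1-81 had 24 and 41 UMIs in B cells and was assigned to 2 and 0 Jchain-high cells. Ighv8-12 was assigned to 1 and 2 Jchain-high cells and Ighv9-4 to 2 and 1.

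**Figure D4:**
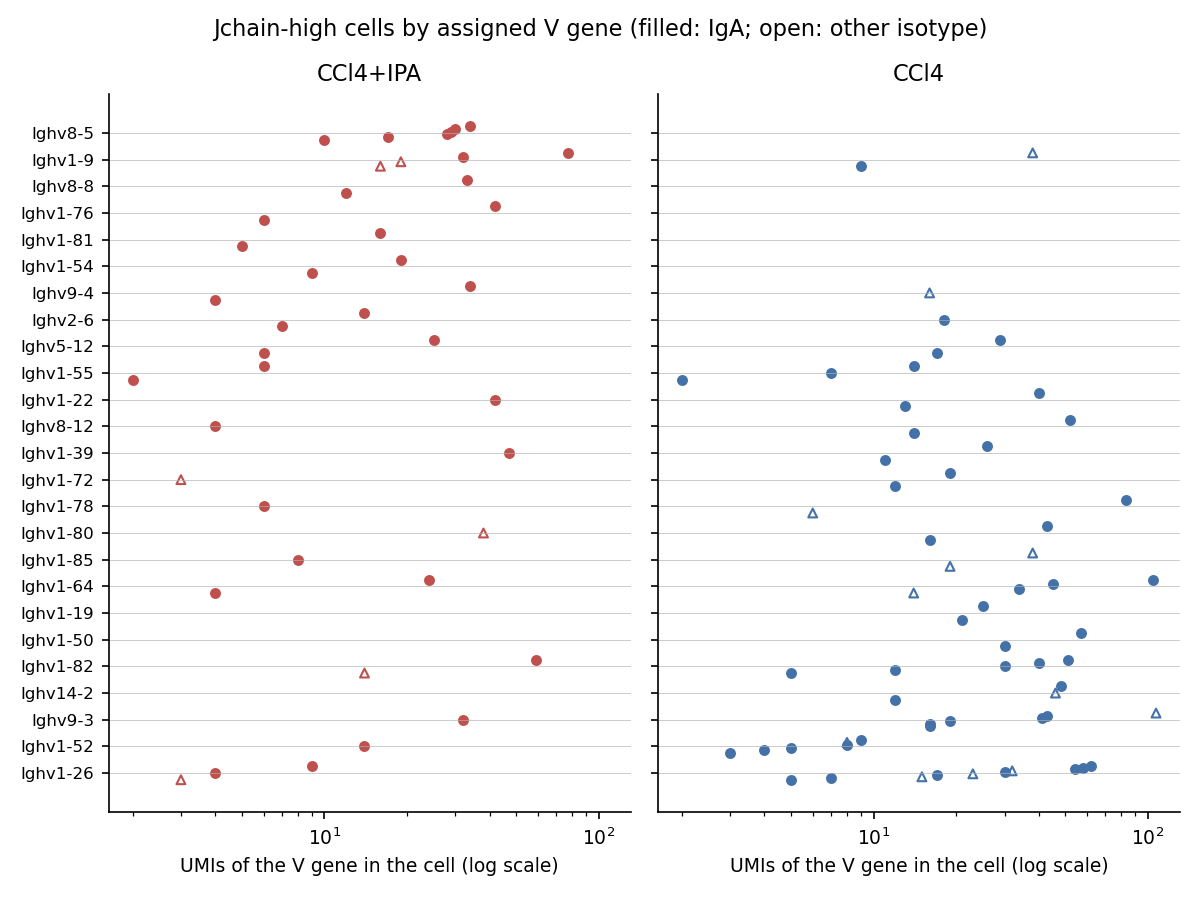
Jchain-high cells by assigned V gene for genes with at least 2 cells in a library, CCl4+IPA at the left and CCl4 at the right. Each point is 1 cell at its UMIs of that gene (log scale), filled for IgA and open for other isotypes. Ighv8-5 has 6 cells with IPA and 0 without, and Ighv1-26 has 3 and 10.

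Across the 53 genes, use in the 2 libraries had a Spearman correlation of 0.282 in Jchain-high cells and 0.747 in Jchain-low B cells. The first value counts cells assigned a gene and the second cells with a UMI of it, so the measures are unlike. Only 50 and 69 assigned cells stand behind the first value, against 349 and 763 cells with an Ighv UMI behind the second. The assigned Jchain-high cells used 30 V genes in the CCl4+IPA library and 28 in the CCl4 library, of which 18 were used in both. A single cell stood behind 17 of the 30 and 10 of the 28. At 50 cells per library the effective number of V genes (inverse Simpson index, the number of equally used genes that would give the same concentration) was 21.2 and 15.7. In B cells of the rule it was 29.2 and 27.9 at 81 cells, in plasma cells 8.33 and 7.18 at 10 cells, and in Jchain-low B cells 18.9 and 21.3 at 41 cells. No interval belongs to these values. The Ighv1 family was used by 28 of 50 (56%) and 51 of 69 (73.9%) assigned Jchain-high cells, a ratio of 0.758 (0.460 to 1.22). In plasma cells by the rule it was used by 7 of 10 and 19 of 28. Ighv8 was used by 9 of 50 (18%) and 2 of 69 (2.90%) assigned Jchain-high cells, a ratio of 6.21 (1.29 to 59.1), and 6 of the 9 were the Ighv8-5 cells.

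Most antibody-secreting cells were of the IgA isotype, the class of mucosal plasma cells. A cell's isotype was the constant gene with most UMIs, at least 5. IgA was found in 49 of 58 Jchain-high cells (84.5%, 72.6 to 92.7) of the CCl4+IPA library and 58 of 75 (77.3%, 66.2 to 86.2) of the CCl4 library, and in 8 of 10 and 19 of 29 plasma cells by the rule. IgG2c followed with 5 and 11 Jchain-high cells, IgG2b with 1 and 4, and IgG1 with 2 and 2. One CCl4+IPA cell and 0 CCl4 cells were IgM. The assigned IgA cells used 26 V genes (42 cells) and 23 V genes (54 cells). The IgG2c cells used 4 V genes in 4 assigned cells with IPA and 8 in 9 without. Among assigned Jchain-high cells, Igkv1-110 was the leading light chain V gene in 5 and 8 cells, Igkv3-2 in 6 CCl4+IPA cells and Igkv10-96 in 10 CCl4 cells. Iglv1 led in 10 and 10, but only 2 and 3 of these had more Iglc than Igkc UMIs, so an Iglv1 lead does not show a lambda chain and is not used further. With IPA, 1 V gene, Ighv8-5, shared an isotype and a leading Igkv gene between at least 2 cells. Without IPA, 6 V genes did so: Ighv1-22, Ighv1-26, Ighv1-52, Ighv1-82, Ighv5-12 and Ighv9-3. The room for sharing was unequal, as an Igkv gene led in 33 assigned cells with IPA and 53 without. Of the V genes used, 17 of 30 with IPA and 10 of 28 without had 1 cell only. Whether sharing differed beyond this was not tested. The junction sequences that would show whether such cells are 1 clone were not analysed here.

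**Figure D5:**
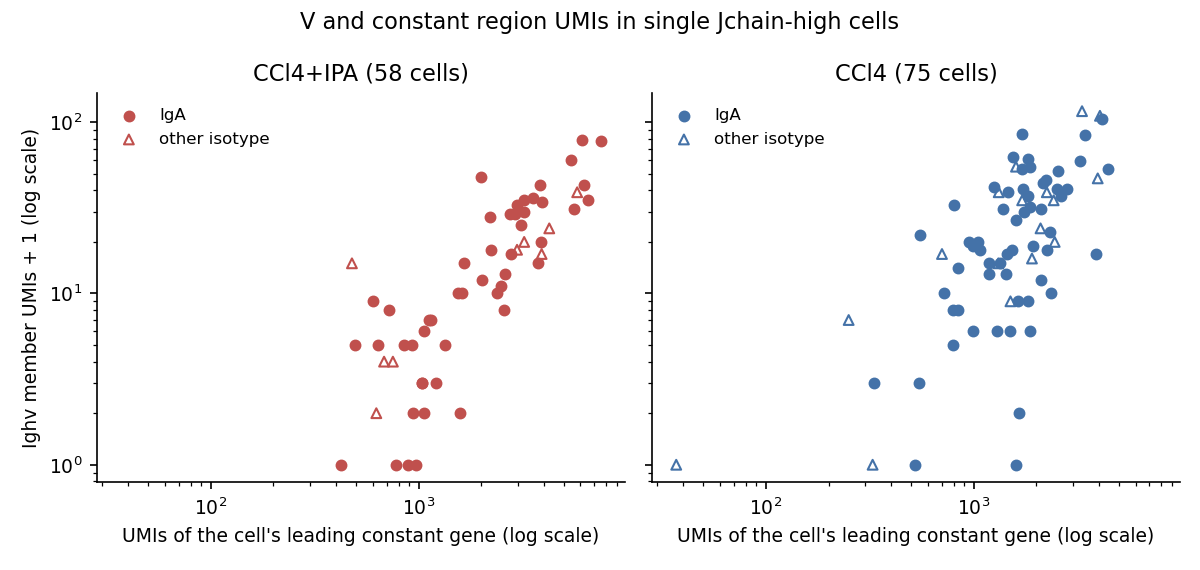
Ighv UMIs plus 1 against UMIs of the leading constant gene in single Jchain-high cells, both on log scales, for 58 CCl4+IPA cells (left) and 75 CCl4 cells (right). Cells with more constant UMIs tend to have more V UMIs. Spearman correlations are 0.841 and 0.619 with UMIs summed over the constant genes, which differ slightly from the plotted leading gene. The summed V UMIs per 1000 constant UMIs are 7.16 and 16.1.

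V and constant UMIs were high in the same cells, with Spearman correlations of 0.841 over the 58 cells and 0.619 over the 75, which share library and depth. The constant UMIs had medians of 2122 and 1649 per cell. Genes of heavy chain expression and rearrangement were described beside the members from a list of 28. In Jchain-low B cells 24 had at least 20 UMIs, of which 1 was at least 2-fold higher with IPA (Ighg3, 6.88 and 2.58 CPM) and 1 at least 2-fold lower (Ighg2c, 11.8 and 30.5 CPM). Over all 13387 genes measured there, 3.82% were that much higher and 2.53% lower. The octamer-binding activators of Ig promoters, Pou2f2 (739 and 527 CPM) and its partner Pou2af1 (301 and 253 CPM), had ratios of 1.40 and 1.19, and the B cell regulators Pax5 and Ebf1 had ratios of 1.35 and 1.33. The recombination gene Rag1 had 10 and 5 UMIs. In Jchain-high cells 20 genes were measured, of which 3 were at least 2-fold higher and 1 lower, against 4.92% and 5.2% of all 6763 genes. Ighm stood at 3437 and 213 CPM, 16.1-fold higher with IPA, and 2972 of its 3215 UMIs there came from the 1 IgM cell. Ighg1 stood at 4351 and 1458 CPM, and 1 IgG1 cell held 3216 of its 4070 UMIs with IPA and another 1313 of 2063 without. Ighg3 had 72 and 0 UMIs, 36.3-fold higher with IPA when the 0 is set at 3 UMIs. It was the isotype of 0 of 58 and 0 of 75 of these cells. Mzb1 had 10 and 42 UMIs, a ratio of 0.360 (0.161 to 0.730). Xbp1, the driver of the secretory programme, was 1839 and 1189 CPM, a ratio of 1.55 (1.44 to 1.65), and Prdm1 243 and 158 CPM. These ratios stand beside medians over all genes of 0.24 (log2) in Jchain-low B cells and −0.01 in Jchain-high cells.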

How the data were processed

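Liver cells were captured with 10x Genomics 3′ V3 chemistry, per the labels' protocols. The deposited matrices hold UMI counts per gene and barcode that the authors generated; Cell Ranger 7.1.0 is the software named per the file headers. The submitters' processing notes name mm9; annotation, intron counting and cell calling are not given in the sources used here. Barcodes with at least 500 UMIs, 300 genes and under 20% mitochondrial UMIs were kept, 10459 of 10471 in the CCl4+IPA library and 10294 of 10427 in the CCl4 library. Scrublet (scanpy 1.11.5, seed 1) called 331 and 278 doublets, which were removed. UMIs were summed per class and library and scaled to CPM, each with an exact Poisson interval. For ratios the interval is the exact binomial one conditional on the total, and for shares the Clopper-Pearson one, all at 95% and for counting error only. A 0 was set at 3 UMIs per library to give a ratio a value, and ratios with at most 3 UMIs on each side were left out. Effective numbers are means of 200 seeded draws. Functions were tested on simulated data. Identities are global alignments (Biopython 1.88).

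The named genes are the 12 members with the highest share of assigned B cells, the 5 highest and 5 lowest B cell ratios among members with 50 UMIs in the higher library, the 8 with most assigned plasma cells, 5 fixed genes, and the member whose log2(CPM + 1) over the cell classes was most like each of the first 3: Ighv5-2 for Ighv6-3, Ighv8-8 for Ighv1-9 and Ighv8-12 for Ighv1-26 (Pearson 0.998, 0.969 and 0.984 over 16 class-by-library points). The members, lists and rules were chosen with earlier results of these data known. Software was Python 3.11.15, numpy 2.4.6, scipy 1.17.1, pandas 2.3.3 and matplotlib 3.10.9. The summed level of the B cell marker list is not reported here.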

Additional observations from a re-analysis of the deposited data

Results flagged for a closer look

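Ighv signal also lies outside the 53 genes and outside the analysed cells. Ighv rows below the minimum of 20 UMIs held 112 UMIs in the CCl4+IPA library and 271 in the CCl4 library. Barcodes left out by the filters or as doublets held 38 and 56 UMIs of the 53 genes, of which 37 and 55 were in doublets.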

How the results depend on the processing

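No paired analysis was possible because each group has 1 library, and for the same reason no library could be left out. Of 128 recomputed values of the comparisons, 111 stayed within the interval of the reported value or within 1.5 times of the reported count. Among recomputed B cell ratios of the named genes, 144 stayed within the interval, 23 moved outside it and 5 changed direction. Ratios below are CCl4+IPA over CCl4. With cells thinned to 1000 UMIs, the Ighv level had a ratio of 0.686 in B cells and 0.682 in plasma cells, assigned B cells a ratio of 0.934 (0.538 as reported), and members past 2-fold numbered 3 of 6 in B cells and 0 of 0 in plasma cells. Assignment with at least 3 UMIs gave assigned B cells a ratio of 0.763, and with 1 UMI 5 of 1412 cells held Ighv11-2 or Ighv12-3. Members past 2-fold in B cells (29 as reported) numbered 17 among members with at least 50 UMIs over both libraries, 14 with at least 50 UMIs in the class and 12 without Jchain-high cells. In plasma cells (11 as reported) they numbered 7 with at least 50 UMIs in the class, 5 by share of Ighv UMIs and 28 with Jchain-high cells in their place. The Ighv level had a ratio of 0.599 in B cells without Jchain-high cells and 0.729 with Jchain-high cells as plasma cells. Per 1000 constant UMIs it was 0.497 in B cells and 0.446 in Jchain-high cells. Members past 2-fold that changed direction were Ighv1-76 (0.690 thinned, 0.503 without Jchain-high cells), Ighv1-9 (0.700 and 0.512) and Ighv5-4 (0.578 without Jchain-high cells). Where a setting does not itself leave out cells or UMIs, the cause was not tested. The settings that use Jchain-high cells, constant UMIs or leave out the top cell were chosen after seeing the data. A V gene was called in 2.45% and 4.55% of B cells.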
